A study of Mus musculus with 9 samples.

Results

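The peroxisome proliferator-activated receptors (PPARs), the retinoid X receptors (RXRs), the PGC-1 coactivators and 2 estrogen-related receptors (ERRs) were followed as a set of 10 genes in the newborn mouse heart. The genes were Ppara, Ppard, Pparg, Rxra, Rxrb, Rxrg, Ppargc1a, Ppargc1b, Esrra and Esrrg, chosen by symbol from the 56748 genes of the deposited table, and each symbol matched 1 row. RNA was sequenced from whole hearts on postnatal day 1 in 9 libraries, 3 from each of 3 genotypes. The CD36KO libraries were labelled as a whole body knockout of Cd36, the CD36CKO libraries as a cardiac specific knockout of Cd36, and the WT libraries as wild type. No treatment is given for any group. The sources used here do not give the allele, the Cre line behind the cardiac specific knockout, the strain, the sex or whether a library pooled several hearts. CD36 imports long-chain fatty acids across the cell membrane, and the title of the study sets it beside the fatty acid binding protein FABP5 and PPARδ, the product of Ppard.

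As background, PPARs are nuclear receptors that bind fatty acids and their derivatives, and each binds DNA as a pair with an RXR at a direct repeat of the hexamer AGGTCA with 1 base between the copies, called DR1. RXRs bind retinoids and are also the partner of the retinoic acid, thyroid hormone, liver X and vitamin D receptors. ERRs have no known natural ligand of the classical kind, bind the element TCAAGGTCA, and depend on PGC-1 coactivators, which Ppargc1a and Ppargc1b encode. In heart muscle PPARs, ERRs and PGC-1 together drive the genes of fatty acid oxidation and of mitochondria, and this programme increases around birth.

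Upstream sequences were taken from RefSeq (GRCm38.p6) as the 250 bases before each annotated start. Windows of 9 of the 10 genes were used, 17 in all, since several genes have more than 1 start. Shown here is the most downstream window each of Rxrg, Pparg and Esrrg, because these genes gave the largest differences between genotypes described below. All 3 lie on the plus strand and are written 5′ to 3′ in lower case, with the hexamer AGGTCA in capitals. Rxrg is at chr1:167618015-167618264, Pparg at chr6:115421816-115422065 and Esrrg at chr1:187997577-187997826.
Rxrg: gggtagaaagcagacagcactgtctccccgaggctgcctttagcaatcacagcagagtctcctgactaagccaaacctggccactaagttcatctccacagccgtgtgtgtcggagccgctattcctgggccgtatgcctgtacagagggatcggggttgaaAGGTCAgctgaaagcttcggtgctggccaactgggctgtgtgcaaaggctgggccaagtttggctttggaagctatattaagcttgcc
Pparg: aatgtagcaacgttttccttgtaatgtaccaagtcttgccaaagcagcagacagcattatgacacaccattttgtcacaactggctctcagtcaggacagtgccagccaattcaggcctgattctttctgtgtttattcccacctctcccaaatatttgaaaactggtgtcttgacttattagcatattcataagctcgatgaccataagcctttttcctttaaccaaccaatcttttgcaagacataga
Esrrg: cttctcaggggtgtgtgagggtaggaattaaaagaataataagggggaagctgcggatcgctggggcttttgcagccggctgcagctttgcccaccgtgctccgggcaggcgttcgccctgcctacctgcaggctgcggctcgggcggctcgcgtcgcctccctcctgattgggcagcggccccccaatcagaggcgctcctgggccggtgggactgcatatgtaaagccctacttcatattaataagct
The Rxrg window holds the hexamer at position -88 from the start, and the other two windows hold none. Both strands were searched. The full DR1 (the hexamer, any 1 base and the hexamer again) was in 0 of the 17 windows, as against 0.0335% of the 32851 RefSeq windows of the same length. The element TCAAGGTCA, which contains the hexamer, was also in 0 of the 17, with 0.387% of all windows holding it. A hexamer alone was in 4 of the 17 windows, those of Rxra, Rxrg and Pparg, and in 14.0% of all windows. A match is a run of letters and no evidence of binding.

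The libraries held 14408631 to 20725356 reads. Up to 3 reads can hide behind a count of 0, and for a gene of 1 kb they amount to 0.128 to 0.192 FPKM. FPKM scales fragments by gene length and library size, so levels can be compared between genes. Cd36 had 72.4, 64.0 and 60.6 FPKM in CD36KO 1 to 3, 201, 183 and 163 FPKM in the libraries labelled CD36CKO and 163, 150 and 125 FPKM in WT. It was lower in CD36KO than in WT (log2 fold change -1.14, adjusted p = 0.00345, limma) and was not lower in the libraries labelled CD36CKO (0.32, adjusted p = 0.153, limma). A gene-level value cannot show the loss of a part of the gene, and the part that each allele lacks is not stated. CD36CKO therefore stands below for the libraries labelled so. The 11 cardiomyocyte markers summed to 20107 to 23428 FPKM in CD36KO, 16914 to 20261 FPKM in CD36CKO and 28141, 30184 and 18023 FPKM in WT 1 to 3, with none at 0, so WT 3 stood apart from the other WT libraries. The library CD36CKO 3 stood apart with 1457 FPKM summed over 14 skeletal muscle markers, against 4.17 to 14.8 FPKM in the other libraries. CD36KO 3 and CD36CKO 3 expressed the Y-linked gene Ddx3y at 9.72 and 6.19 FPKM, and no other library exceeded 0.0820 FPKM. The mean log2 level of 11 atrial markers was 3.21 to 4.72 in CD36KO, 4.12 to 4.91 in the libraries labelled CD36CKO and 5.64 to 6.18 in WT, with no overlap between either knockout and WT. Mitochondrially encoded genes took 11.1% to 14.3% of the reads in CD36KO, 10.3% to 12.2% in CD36CKO and 4.55% to 8.89% in WT. The part of these differences in the results below was not tested, and where atrial tissue or mitochondrial reads follow genotype they cannot be told apart from it. The labels do not say that replicates came from separate animals, so the p-values rest on a spread between libraries that may be technical.

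All 10 genes passed the filter of a mean of 1 FPKM. Over the 9 libraries Esrra had the highest mean level at 51.7 FPKM, followed by Rxrb at 22.6 FPKM, Rxra at 13.1 FPKM and Ppargc1a at 12.4 FPKM. Ppargc1b averaged 5.13 FPKM, Esrrg 3.40 FPKM, Ppard 3.24 FPKM, Pparg 2.44 FPKM, Rxrg 1.59 FPKM and Ppara 1.43 FPKM. The first genes of this order were well separated, since Esrra exceeded Rxrb and Rxrb exceeded Rxra in all 9 libraries. Rxra was above Ppargc1a in 7 of 9 libraries, Esrrg above Ppard in 5, Pparg above Rxrg in 6 and Rxrg above Ppara in 3. The order of these neighbours thus changed between libraries, in part with genotype. Esrrg lay below Ppard in every WT library and above it in every CD36KO library. In every WT library Rxrg lay below both Pparg and Ppara. Differences between neighbours were not tested. Rxrg varied most, with its highest level 4.84 times its lowest, and Rxra varied least, at 1.39 times.

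**Figure D1:**
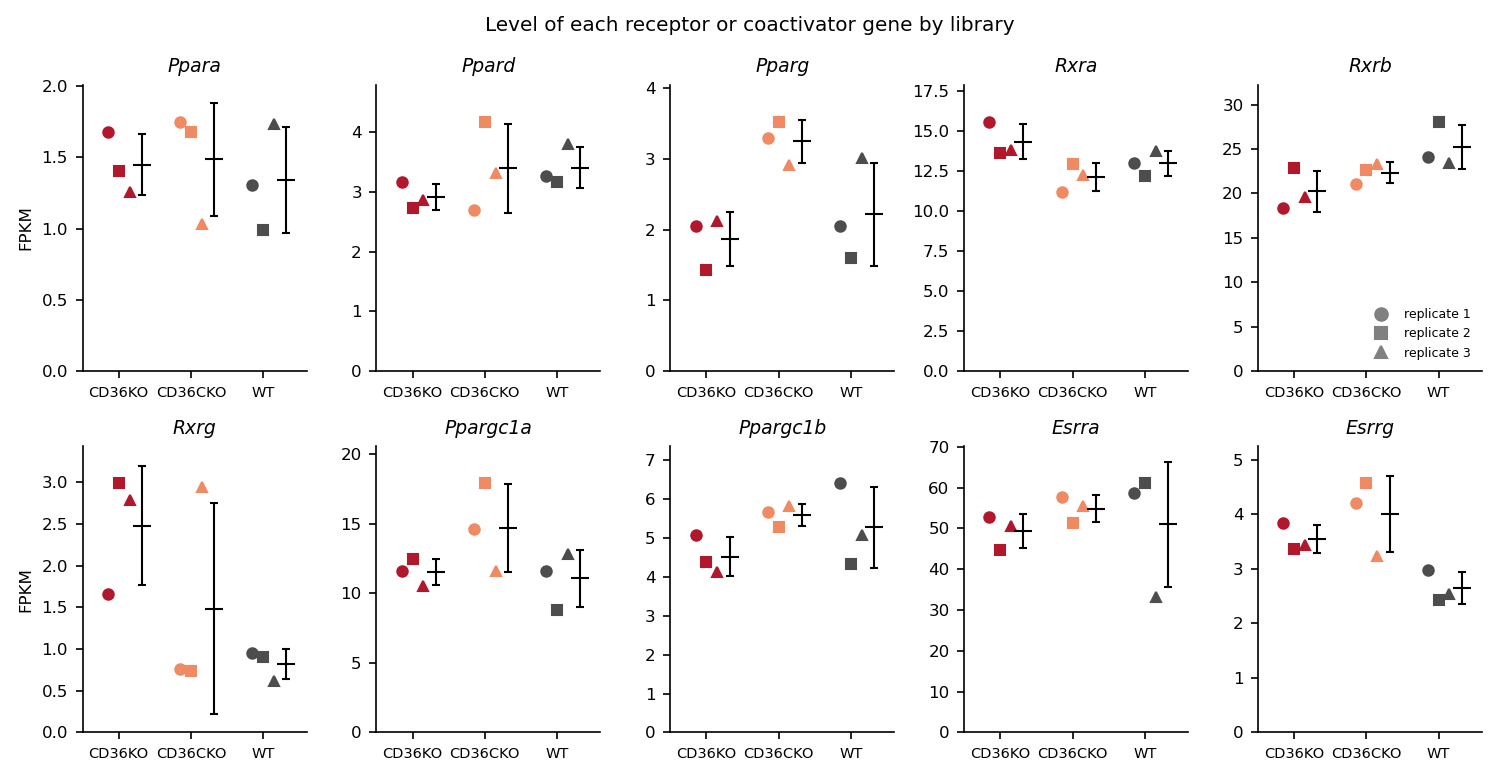
FPKM of each of the 10 genes in CD36KO, CD36CKO and WT libraries, with 1 point per library and black marks for the mean ± SD (n = 3). The y axis starts at 0 and differs between panels. Rxrg in CD36CKO 3, at 2.94 FPKM, lies among the CD36KO values, and Esrra in WT 3, at 33.3 FPKM, lies below all other libraries.

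Of the 10 genes, Esrrg in the libraries labelled CD36CKO was the only one past the threshold of an adjusted p of 0.05 in any of the 3 comparisons (limma, adjusted over 12206 genes). Fold changes below are on the log2(FPKM + 1) scale, and a value alone in parentheses after one is its adjusted p from the same fit. In CD36KO against WT, 0 of the 10 passed, while 12.5% of all genes tested passed. In CD36CKO against WT, 1 of the 10 passed, against a background of 12.7%. In CD36KO against CD36CKO, 0 passed, against 4.53%. The count of genes whose libraries did not overlap between groups was 4 of 10 in CD36KO against WT (35.2% of all genes), 2 of 10 in CD36CKO against WT (32.6%) and 3 of 10 in CD36KO against CD36CKO (36.6%). These shares are near or below the background. The median log2 fold change of the 10 genes was 0.03 in CD36KO over WT, 0.12 in CD36CKO over WT and -0.14 in CD36KO over CD36CKO, and that of all tested genes lay between -0.01 and 0.00. The comparisons with WT share the WT libraries. In whole hearts, fewer cells of a type and less RNA per cell cannot be told apart.

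**Figure D2:**
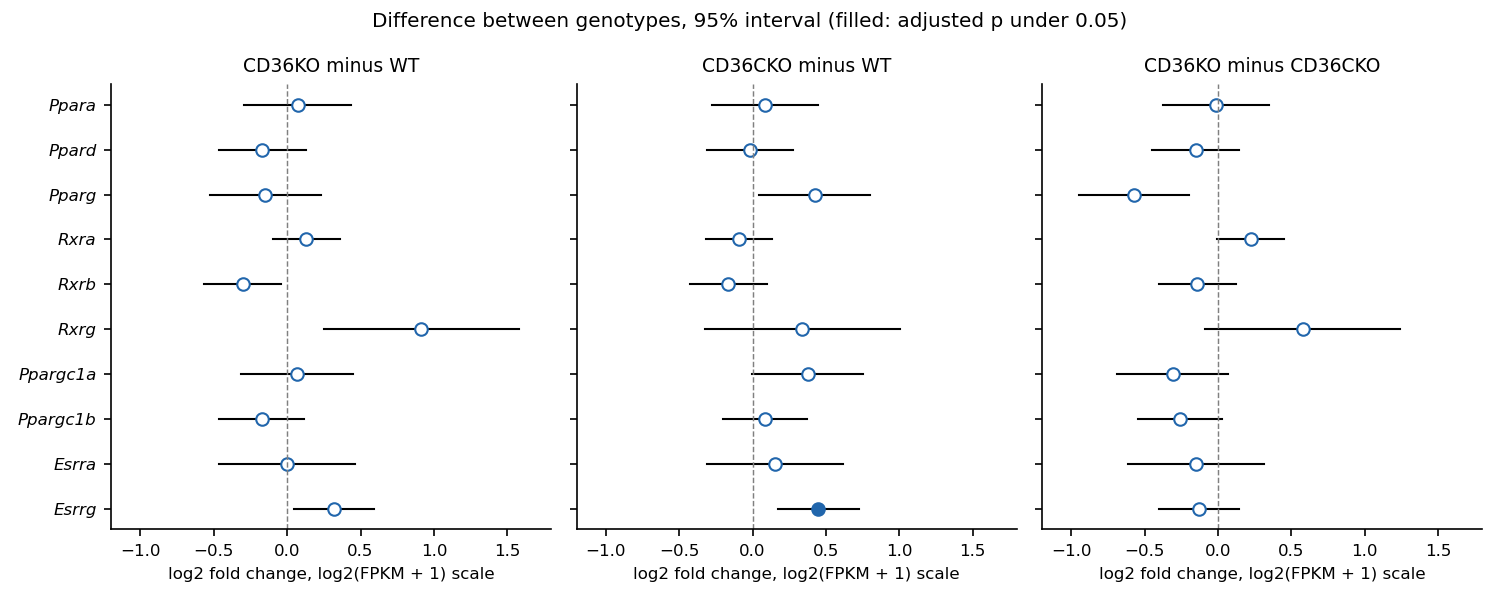
Difference between genotypes for the 10 genes, as log2 fold change on the log2(FPKM + 1) scale with its 95% interval from limma, for CD36KO minus WT, CD36CKO minus WT and CD36KO minus CD36CKO. Filled points have an adjusted p under 0.05. The single filled point is Esrrg in CD36CKO minus WT at 0.45, and Rxrg in CD36KO minus WT lies farthest from 0 at 0.92.

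Among the PPAR receptors, Ppara, which drives fatty acid oxidation genes in heart and liver, was the lowest expressed. It had 1.68, 1.40 and 1.26 FPKM in CD36KO 1 to 3, 1.75, 1.68 and 1.03 FPKM in CD36CKO and 1.30, 0.991 and 1.73 FPKM in WT. The groups overlapped, and the log2 fold changes against WT were 0.07 ± 0.16 (SE) in CD36KO and 0.08 ± 0.16 in CD36CKO, with adjusted p of 0.799 and 0.747 (limma). The table places Ppara on chromosome 15 from 85619184 to 85687020, on a build that is not given.

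Ppard, the receptor named in the study's title and broadly expressed across tissues, was the most abundant PPAR. It had 3.16, 2.74 and 2.86 FPKM in CD36KO, 2.70, 4.18 and 3.31 FPKM in CD36CKO and 3.26, 3.16 and 3.81 FPKM in WT. The CD36KO libraries lay below those of WT by a narrow margin, and the CD36CKO values spread across the WT range and beyond it. Against WT the log2 fold change was -0.17 ± 0.13 (SE) in CD36KO, with a 95% interval of -0.46 to 0.13 and an adjusted p of 0.416 (limma). In CD36CKO it was -0.02 ± 0.13, with an interval of -0.31 to 0.28 and an adjusted p of 0.945 (limma). The sign in CD36CKO turned to 0.20 when mitochondrial and haemoglobin genes were removed and the libraries rescaled, a step that moved the median of all genes to 0.22. Ppard lies on chromosome 17 from 28451674 to 28520448 in the table's coordinates.

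Pparg, the receptor that governs fat cell formation, had the smallest p of the 10 genes between the knockouts. It had 2.05, 1.43 and 2.13 FPKM in CD36KO, 3.30, 3.52 and 2.92 FPKM in CD36CKO and 2.05, 1.59 and 3.01 FPKM in WT, from 66 to 244 reads per library. Every CD36KO library lay below every CD36CKO library, while WT spread across both, with WT 3 in the CD36CKO range. CD36KO over CD36CKO gave a log2 fold change of -0.57 ± 0.17 (SE), with a 95% interval of -0.95 to -0.19 and an adjusted p of 0.0858 (limma). For CD36CKO over WT it was 0.42 ± 0.17 (adjusted p = 0.118, limma) and for CD36KO over WT -0.15 ± 0.17 (adjusted p = 0.58, limma). Without WT 3, the first 2 of these passed the threshold, at -0.57 (adjusted p = 0.0249, limma) and 0.59 (adjusted p = 0.0161, limma). Of 20 alternative settings, the first passed under 3 and the second under 2. Leaving WT 3 out also raised the calls over all genes, from 553 to 1463 in the first comparison and from 1547 to 3950 in the second. The first holds no WT library, so WT 3 enters it only through the shared estimate of the spread. The 9 adipocyte markers summed to 33.9 to 37.4 FPKM in CD36KO, 30.8 to 34.0 FPKM in CD36CKO and 13.2 to 29.5 FPKM in WT. Nearly all of this was Cidea, a lipid droplet protein of brown fat, at 12.4 to 36.5 FPKM, while the defining fat cell gene Adipoq reached at most 0.0789 FPKM and 3 to 5 of the 9 markers were at 0. Pparg lies on chromosome 6 from 115337912 to 115467360 in the table's coordinates.

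The RXR partners showed no common direction. Rxra, the RXR that mouse embryos need to form the heart wall, had 15.6, 13.6 and 13.8 FPKM in CD36KO, 11.2, 12.9 and 12.2 FPKM in CD36CKO and 13.0, 12.2 and 13.7 FPKM in WT. CD36KO lay above CD36CKO in every library and overlapped WT. Its log2 fold change was 0.22 ± 0.10 (SE) for CD36KO over CD36CKO (adjusted p = 0.235, limma), 0.13 ± 0.10 for CD36KO over WT (0.41) and -0.09 ± 0.10 for CD36CKO over WT (0.556).

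Rxrb, the broadly expressed RXR, was the most abundant of the family. It had 18.3, 22.8 and 19.6 FPKM in CD36KO, 21.1, 22.6 and 23.4 FPKM in CD36CKO and 24.1, 28.1 and 23.5 FPKM in WT. All libraries of either knockout lay below all WT libraries, with CD36CKO 3 and WT 3 almost touching. The log2 fold change against WT was -0.30 ± 0.12 (SE) in CD36KO (95% interval -0.57 to -0.04, adjusted p = 0.117, limma) and -0.16 ± 0.12 in CD36CKO (-0.43 to 0.10, adjusted p = 0.351, limma). After the mitochondrial and haemoglobin genes were removed these values became -0.16 (adjusted p = 0.413, limma) and 0.10 (0.556). The median of all genes was then 0.10 and 0.22. With quantile normalization Rxrb was at -0.19 in CD36KO and -0.015 in CD36CKO, beside medians of 0.017 and 0.024. The part of scaling in the Rxrb difference was not tested. Rxra lies on chromosome 2 from 27566452 to 27652969 and Rxrb on chromosome 17 from 34250786 to 34257373 in the table's coordinates.

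Rxrg, the RXR known from skeletal muscle and heart, gave the largest difference of the set and rested on few reads. It had 1.66, 2.99 and 2.78 FPKM in CD36KO, 0.761, 0.743 and 2.94 FPKM in CD36CKO and 0.949, 0.901 and 0.617 FPKM in WT. These values came from 80, 107 and 110 reads in CD36KO, 37, 40 and 113 reads in CD36CKO and 44, 37 and 26 reads in WT. All CD36KO libraries lay above all WT libraries, and of the CD36CKO libraries 2 lay within the WT range and CD36CKO 3 lay with CD36KO. The mean was 2.48 ± 0.71 FPKM (SD, n = 3) in CD36KO and 0.822 ± 0.179 FPKM in WT, a ratio of 3.02. The log2 fold change was 0.92 ± 0.30 (SE), with a 95% interval of 0.25 to 1.58 and an adjusted p of 0.0723 (limma), which misses the threshold.

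The library CD36CKO 3 decides how Rxrg reads in the other comparisons. It is the library with 1457 FPKM of summed skeletal muscle markers, all 14 of them detected, among them the perinatal myosin Myh8 at 99.9 FPKM. With it, the log2 fold change of Rxrg was 0.34 ± 0.30 for CD36CKO over WT (adjusted p = 0.453, limma) and 0.58 ± 0.30 for CD36KO over CD36CKO (0.291). Without it, these values were -0.05 (adjusted p = 0.875, limma) and 0.97 (adjusted p = 0.0367, limma), and the difference of CD36KO from WT, still 0.92, passed the threshold (adjusted p = 0.0168, limma). The CD36KO libraries held 4.96 to 6.10 FPKM of these markers and the WT libraries 11.3 to 14.8 FPKM. Rxrg lies on chromosome 1 from 167425953 to 167467192 in the table's coordinates.

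The PGC-1 coactivators did not pass the threshold in any comparison. Ppargc1a, the inducible coactivator of mitochondrial and oxidative genes, had 11.6, 12.5 and 10.6 FPKM in CD36KO, 14.6, 17.9 and 11.6 FPKM in CD36CKO and 11.6, 8.82 and 12.8 FPKM in WT. The groups overlapped, with 2 CD36CKO libraries above all the others. Its log2 fold change was 0.37 ± 0.17 (SE) for CD36CKO over WT (95% interval -0.01 to 0.75, adjusted p = 0.159, limma), 0.06 ± 0.17 for CD36KO over WT (0.827) and -0.31 ± 0.17 for CD36KO over CD36CKO (0.321).

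Ppargc1b, its paralogue, had 5.08, 4.37 and 4.12 FPKM in CD36KO, 5.66, 5.29 and 5.83 FPKM in CD36CKO and 6.41, 4.34 and 5.07 FPKM in WT. CD36KO lay below CD36CKO in every library, and WT spread over both. Ppargc1b gave a log2 fold change of -0.26 ± 0.13 (SE) for CD36KO over CD36CKO (adjusted p = 0.277, limma), -0.17 ± 0.13 for CD36KO over WT (0.394) and 0.08 ± 0.13 for CD36CKO over WT (0.677). Ppargc1a lies on chromosome 5 from 51611592 to 51725068 and Ppargc1b on chromosome 18 from 61431207 to 61533502 in the table's coordinates.

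Of the estrogen-related receptors, Esrra, a regulator of oxidative phosphorylation genes, had the highest level of the set. It had 52.8, 44.8 and 50.5 FPKM in CD36KO, 57.8, 51.2 and 55.5 FPKM in CD36CKO and 58.6, 61.0 and 33.3 FPKM in WT. WT 3 was the lowest of all 9 libraries, and WT 1 and WT 2 were the highest. The log2 fold change against WT was 0.00 ± 0.21 (SE) in CD36KO (adjusted p = 0.997, limma) and 0.15 ± 0.21 in CD36CKO (0.641). Without WT 3 it was -0.27 (adjusted p = 0.0849, limma) in CD36KO and -0.12 in CD36CKO. In CD36KO the value near 0 has no clear direction, and its sign also turned without CD36KO 1 (-0.048) or CD36KO 3 (-0.017). In CD36CKO no single library other than WT 3 turned the sign when left out. Esrra shares 73 bases with Trmt112 on the opposite strand, which had 15.6 to 30.6 FPKM, and the use of strand in counting is not stated. Esrra lies on chromosome 19 from 6888345 to 6899208 in the table's coordinates.

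Esrrg, a receptor that supports the switch of the heart to oxidative metabolism around birth, was higher in the libraries labelled CD36CKO than in WT. It had 3.83, 3.36 and 3.45 FPKM in CD36KO, 4.22, 4.57 and 3.23 FPKM in CD36CKO and 2.98, 2.43 and 2.54 FPKM in WT. All libraries of either knockout lay above all WT libraries. The mean was 4.004 ± 0.69 FPKM (SD, n = 3) in CD36CKO and 2.65 ± 0.29 FPKM in WT, a ratio of 1.51. The log2 fold change was 0.45 ± 0.12 (SE), with a 95% interval of 0.17 to 0.72 and an adjusted p of 0.0432 (limma). In CD36KO the mean was 3.55 ± 0.25 FPKM and the log2 fold change over WT 0.32 ± 0.12 (95% interval 0.04 to 0.59, adjusted p = 0.116, limma). The difference between the knockouts was -0.13 ± 0.12 (adjusted p = 0.574, limma), so Esrrg is not shown to differ between CD36KO and CD36CKO.

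The Esrrg call lies close to the threshold. Without any single CD36KO library, CD36CKO 1, CD36CKO 2, WT 1 or WT 2 it was lost, at adjusted p of 0.0601 to 0.164, with log2 fold changes of 0.37 to 0.51. Without CD36CKO 3 it was 0.57 (adjusted p = 0.0266, limma) and without WT 3 0.43 (adjusted p = 0.0398, limma). With the mean level of the atrial markers as a covariate, it was 0.36 (adjusted p = 0.603, limma), a fit in which 2 of all 12206 genes passed. Esrrg lies on chromosome 1 from 187340988 to 187947082 in the table's coordinates. By root mean square difference of centred log2 profiles over the 9 libraries, its nearest protein-coding genes were Tbc1d16 at 0.055, Pdha1 at 0.057 and Rrm2b at 0.061, with Esrrg itself at an SD of 0.22. Pdha1 encodes a subunit of pyruvate dehydrogenase and Rrm2b a subunit of ribonucleotide reductase.

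The share of each isotype within its family was set beside its level, as a description, since 3 libraries against 3 cannot give an exact permutation p under 0.10. Summed levels of the 3 PPAR genes were 6.24 ± 0.66 FPKM (SD, n = 3) in CD36KO, 8.13 ± 1.11 FPKM in CD36CKO and 6.97 ± 1.44 FPKM in WT. Ppard made up 46.9% of this sum in CD36KO, 41.7% in CD36CKO and 49.6% in WT. Pparg made up 29.8% in CD36KO, 40.1% in CD36CKO and 31.3% in WT. Ppara made up 23.2% in CD36KO, 18.2% in CD36CKO and 19.1% in WT. The lowest Pparg share in CD36CKO was 37.6%, above the highest of 34.0% in CD36KO and 35.2% in WT. The 3 RXR genes summed to 37.0 ± 2.07 FPKM in CD36KO, 35.9 ± 2.78 FPKM in CD36CKO and 39.0 ± 1.86 FPKM in WT. Rxrb made up 54.6% of this sum in CD36KO, 62.3% in CD36CKO and 64.6% in WT, and did not overlap between CD36KO (51.5% to 57.9%) and WT (62.1% to 68.2%). Rxrg made up 6.65% ± 1.71 (SD, n = 3) in CD36KO, 3.997% ± 3.16 in CD36CKO and 2.10% ± 0.44 in WT.

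The coactivators summed to 16.1 ± 1.19 FPKM in CD36KO, 20.3 ± 2.87 FPKM in CD36CKO and 16.4 ± 2.76 FPKM in WT, and Ppargc1a made up 71.8% of that sum in CD36KO, 72.0% in CD36CKO and 67.7% in WT. The ERR sum, which here includes Esrrb, was 54.8 ± 4.39 FPKM in CD36KO, 60.4 ± 3.40 FPKM in CD36CKO and 55.6 ± 15.4 FPKM in WT. Esrra made up 90.1% of it in CD36KO, 90.8% in CD36CKO and 91.2% in WT. Of all the shares, those of Ppara, Rxra, Ppargc1a and Esrra were each tested in the 3 comparisons by a two-sided exact permutation test. The 12 p-values were 0.2 to 1.0 and after Benjamini-Hochberg adjustment 0.48 or more, in a design that cannot reach 0.05. The shares of Pparg and Rxrb that did not overlap between groups were not tested, and no background for such separation is given.

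**Figure D3:**
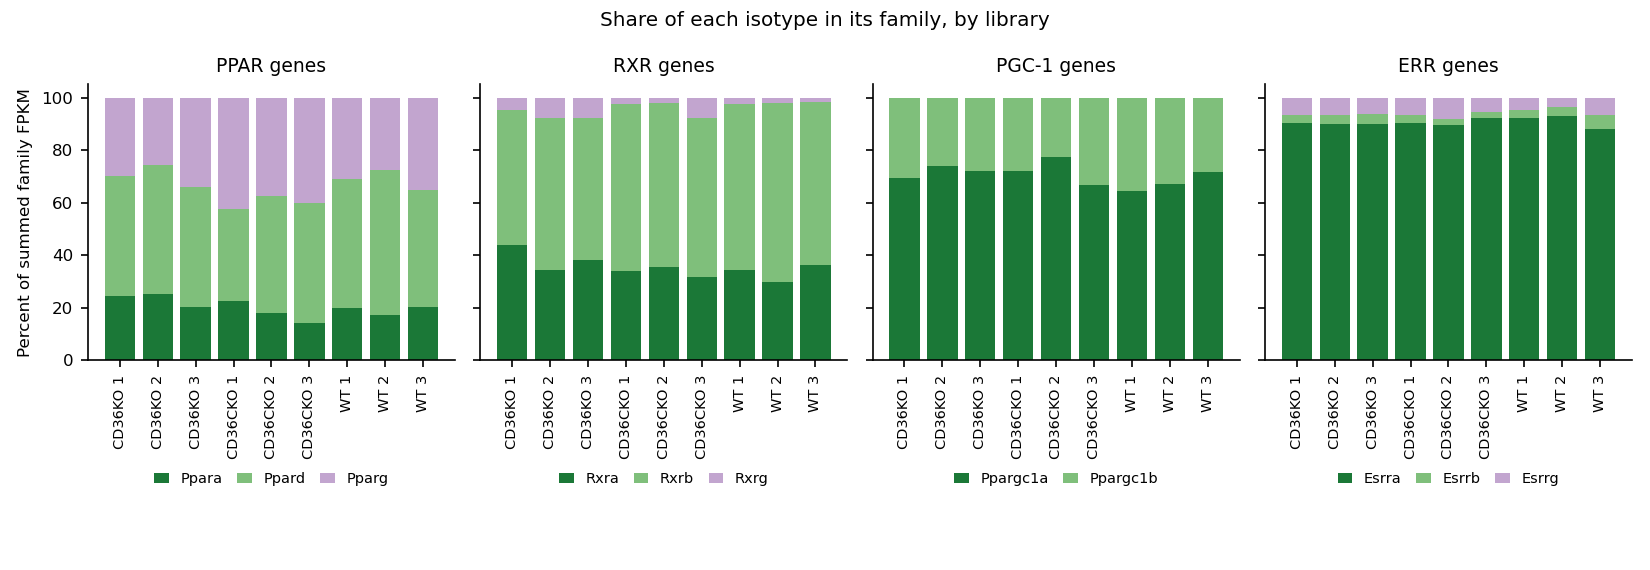
Percent of the summed family FPKM taken by each gene, in each of the 9 libraries, for the PPAR, RXR, PGC-1 and ERR genes. Bars start at 0 and each adds to 100%. Rxrg takes its widest share in CD36KO libraries and in CD36CKO 3, and Pparg takes 37.6% or more in each CD36CKO library.

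Most of the genes that PPARs are known to activate had fold changes above 0 in either knockout, and few of them passed the threshold. Of 36 listed PPAR targets 31 were tested. Against WT, in CD36KO 4 were higher and 1 lower, 26 of the 31 had a log2 fold change above 0 and their median was 0.28, with all tested genes at -0.01. The 5 called are 16.1% of the list, near the 12.5% of all genes, of which 5.81% were higher and 6.7% lower. In CD36CKO against WT, 7 were higher and 0 lower, 29 of 31 were above 0 and the median was 0.65, with all tested genes at -0.00. The 7 called are 22.6% of the list, beside 12.7% of all genes, of which 5.36% were higher and 7.32% lower. The list was chosen with earlier results of these data known, so these shares do not test it as a whole. In CD36KO against CD36CKO none of the targets passed, beside 2.61% of all genes higher and 1.93% lower, and their median was -0.21. The smallest p there was that of Txnip (log2 fold change -1.04, adjusted p = 0.0559, limma). Other lists described below also held fold changes above 0 against WT. In CD36KO these were 14 of 17 PGC-1 regulators, 14 of 22 coregulators and 14 of 26 ERR and PGC-1 targets. In CD36CKO they were 15, 20 and 16 of the same lists, with medians of 0.17, 0.20 and 0.10. Of 5 competitors for DR1 or the ERR element, 1 and 2 were above 0 in CD36KO and CD36CKO.

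In CD36KO, Ech1 and Acadm, enzymes of fatty acid oxidation, rose by 1.17 ± 0.27 and 0.62 ± 0.14 on the log2 scale (adjusted p = 0.0258 and 0.0225, limma). Ech1 had 337, 313 and 298 FPKM in CD36KO and 169, 192 and 84.3 FPKM in WT. Pnpla2, the lipase that releases fatty acids from triglyceride, fell by 0.46 in CD36KO (adjusted p = 0.0361, limma), to 63.6 ± 5.76 FPKM (SD, n = 3), against 87.5 ± 3.43 FPKM in WT. In CD36CKO, Acsl1, which activates long-chain fatty acids, and Cpt1a, which commits them to mitochondrial entry, rose by 0.85 ± 0.17 and 0.68 ± 0.15 (adjusted p = 0.0157 and 0.0203, limma). Acsl1 had 55.4, 58.1 and 50.6 FPKM in CD36CKO and 38.5, 29.5 and 23.6 FPKM in WT.

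The number of PPAR targets called depended on the libraries and on scaling. Without both CD36KO 3 and CD36CKO 3, 1 was higher in each knockout against WT. In CD36CKO, 1 was higher without CD36CKO 2, 4 without CD36CKO 3, CD36KO 2 or WT 2, and 12 without WT 3. In CD36KO, 1 was higher without any 1 of the CD36KO libraries, and without WT 3 7 were higher and 3 lower. Without WT 3 the medians were 0.14 in CD36KO and 0.35 in CD36CKO, both well under those of all libraries, and between the knockouts 7 targets were lower and 0 higher. Calls over all genes also moved. Against WT they were 1527 in CD36KO and 1547 in CD36CKO in the reported fit. They were 200 and 412 without both CD36KO 3 and CD36CKO 3, and 3203 and 3950 without WT 3. In CD36CKO 330 passed without CD36CKO 2, and in CD36KO 405 to 596 without any 1 of its libraries. Between the knockouts 1463 passed without WT 3, beside 553 in the reported fit. After mitochondrial and haemoglobin genes were removed, 10 targets were higher in CD36KO and 25 in CD36CKO, with medians of 0.42 and 0.93 beside 0.10 and 0.22 for all genes. Of all genes 1028 and 2022 then passed. Each setting tried on the list left the median above 0, from 0.11 to 0.52 in CD36KO and from 0.34 to 0.93 in CD36CKO. The atrial covariate was not among these settings, so its effect on the list was not tested. Upstream windows of 25 of these target genes, 28 in all, held 0 copies of the full repeat and a hexamer in 6.

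**Figure D4:**
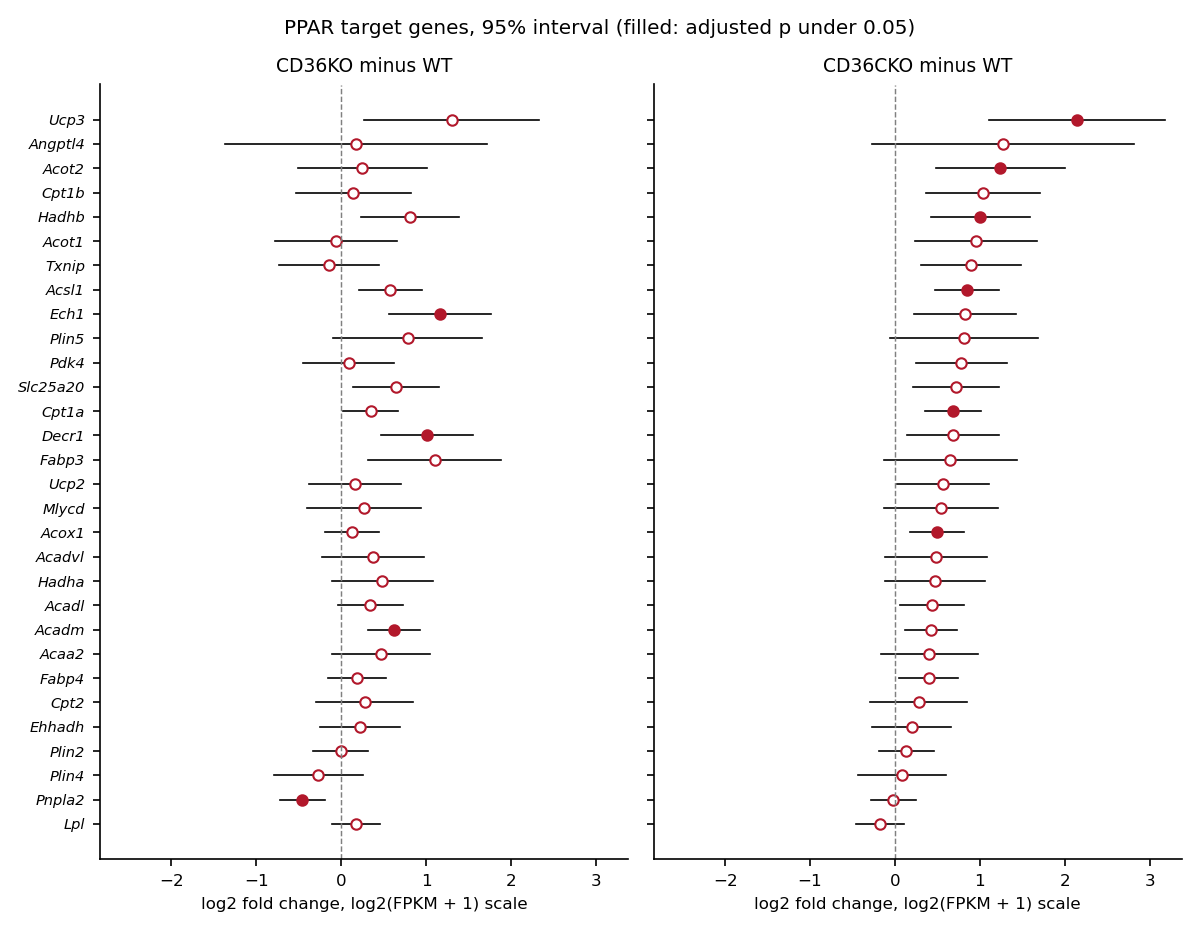
Log2 fold change on the log2(FPKM + 1) scale with its 95% interval for 30 of the 31 tested PPAR target genes, in CD36KO minus WT and CD36CKO minus WT. Filled points have an adjusted p under 0.05 (limma). Of the 30 genes plotted, 25 lie to the right of 0 in CD36KO minus WT and 28 in CD36CKO minus WT.

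Targets of ERR and PGC-1, which include the genes of mitochondrial DNA upkeep and respiration, showed no common direction. Of 27 listed, 26 were tested. In CD36KO against WT, 2 were higher and 1 lower, with a median log2 fold change of 0.03. In CD36CKO against WT, 4 were higher and 1 lower, with a median of 0.10, and in CD36KO against CD36CKO 0 were higher and 1 lower, with a median of 0.01. The called share of the list was 11.5%, 19.2% and 3.85% in these comparisons, beside 12.5%, 12.7% and 4.53% of all genes. Gabpa, a subunit of the nuclear respiratory factor GABP, rose by 0.49 ± 0.13 in CD36KO (adjusted p = 0.0418, limma) and 0.52 ± 0.13 in CD36CKO (0.0357). It had 10.9, 8.20 and 9.76 FPKM in CD36KO, 10.7, 10.4 and 8.34 FPKM in CD36CKO and 7.17, 5.82 and 6.60 FPKM in WT. Gabpb1, another GABP subunit, rose by 0.36 ± 0.10 in CD36KO (0.0484), a call lost in 8 of 9 fits that each left out 1 library. Gabpb1 shares 434 bases with the noncoding gene Gm27003 on the opposite strand, which had 1.13 to 3.17 FPKM, so their reads may not be told apart.

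Vegfa, the vessel growth factor that PGC-1α induces, rose by 1.05 ± 0.23 in CD36CKO (adjusted p = 0.0208, limma), with 56.9, 69.3 and 63.4 FPKM in CD36CKO and 31.7, 20.7 and 41.1 FPKM in WT. Polg, the mitochondrial DNA polymerase, rose by 0.37 ± 0.10 in CD36CKO (0.0352), a call lost in 8 of 9 fits that each left out 1 library. Nrf1, a regulator of mitochondrial genes, fell by 0.38 in CD36CKO (adjusted p = 0.0271, limma), with 2.35, 2.29 and 2.15 FPKM in CD36CKO and 3.29, 3.13 and 3.33 FPKM in WT. Twnk, the mitochondrial DNA helicase, fell by 0.57 in CD36KO against WT (adjusted p = 0.0485, limma) and by 0.68 in CD36KO against CD36CKO (0.0465). These 2 calls on Twnk were lost in 8 and 7 of the 9 fits. Gabpa shares 701 bases with Atp5j on the opposite strand, which had 119 to 219 FPKM, and Twnk shares 780 bases with Mrpl43, which had 13.8 to 22.0 FPKM, so reads of these pairs may not be told apart.

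Other receptors that pair with RXR were tested for 7 of 13 listed genes. In CD36KO against WT, Rara, the retinoic acid receptor α, fell by 0.42 (adjusted p = 0.0485, limma), with 9.52, 9.49 and 9.94 FPKM in CD36KO and 14.1, 14.8 and 11.04 FPKM in WT. This call held under 6 of 21 alternative settings. Rarg, the retinoic acid receptor γ, rose by 0.52 ± 0.10 in CD36CKO against WT (adjusted p = 0.0137, limma), with 4.87, 4.82 and 5.55 FPKM in CD36CKO and 3.20, 2.94 and 3.61 FPKM in WT. Rarg fell by 0.43 in CD36KO against CD36CKO (0.0419). No other gene of this list passed, so 1 of 7 (14.3%) was called in each comparison, beside 12.5%, 12.7% and 4.53% of all genes. The medians of the 7 were 0.07 in CD36KO over WT, 0.00 in CD36CKO over WT and -0.14 in CD36KO over CD36CKO. Of the receptors that compete for DR1 or the ERR element, 5 of 8 were tested and none passed in any comparison, with medians of -0.16, -0.01 and -0.10 in the same comparisons. The smallest p-values there were for Nr2f1, a COUP-TF receptor, at -0.34 in CD36KO against WT (adjusted p = 0.15, limma) and -0.33 in CD36KO against CD36CKO (0.223), and for Nr2c1, an orphan receptor, at 0.24 in CD36CKO against WT (0.16).

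Of 22 receptor coregulators, all tested, 1 was higher and 1 lower in CD36KO against WT, 1 higher and 0 lower in CD36CKO against WT, and 0 higher and 1 lower in CD36KO against CD36CKO, with medians of 0.11, 0.20 and -0.13 in these comparisons. The called shares, 9.09%, 4.55% and 4.55%, were below or near those of all genes (12.5%, 12.7% and 4.53%). Kat2b, a histone acetyltransferase, rose by 0.58 ± 0.16 in CD36KO (adjusted p = 0.0427, limma). Nr0b2, the corepressor SHP, fell by 0.54 in CD36KO against WT (0.0326) and by 0.70 against CD36CKO (0.022), with 9.12, 8.55 and 9.19 FPKM in CD36KO, 15.5, 14.9 and 15.1 FPKM in CD36CKO and 12.9, 17.0 and 11.2 FPKM in WT. Ncoa1, the coactivator SRC-1, rose by 0.34 ± 0.09 in CD36CKO (0.0419), a call lost in 8 of 9 fits that each left out 1 library.

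Of 18 regulators of PGC-1, 17 were tested. In CD36KO 2 were higher than in WT, Ppp3cb, a catalytic subunit of calcineurin, by 0.49 ± 0.09 (adjusted p = 0.0136, limma) and the transcription factor Mef2a by 0.56 ± 0.13 (0.0263), and 0 were lower. In CD36CKO against WT, 1 was higher, the transcription factor Mef2d by 0.53 ± 0.13 (0.0271), and 0 were lower. None passed between the knockouts, where Mef2d at -0.38 had the smallest p (adjusted p = 0.114, limma). The medians of these 3 comparisons were 0.13, 0.17 and -0.04. The called shares against WT, 11.8% in CD36KO and 5.88% in CD36CKO, lay below the 12.5% and 12.7% of all genes. Mef2a overlaps Lysmd4 on the opposite strand, which had 3.29 to 3.93 FPKM.

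Genes that supply or carry receptor ligands were tested for 14 of 20, and 5 of the list also stand in the list of PPAR targets, Acsl1 and Pnpla2 among them. In CD36KO against WT, 2 were higher and 3 lower, in CD36CKO against WT 1 higher and 2 lower, and in CD36KO against CD36CKO 1 higher and 1 lower, with medians of 0.15, 0.17 and 0.02 in these comparisons. The called shares were 35.7%, 21.4% and 14.3%, beside 12.5%, 12.7% and 4.53% of all genes. All lists were chosen with earlier results of these data known, so a called share does not test its list as a whole. Aldh1a2, which makes retinoic acid, rose by 1.40 ± 0.17 in CD36KO against WT (adjusted p = 0.0033, limma) and by 1.01 ± 0.17 against CD36CKO (0.0156). It had 15.9, 16.9 and 22.0 FPKM in CD36KO, 9.35, 6.74 and 9.56 FPKM in CD36CKO and 7.55, 6.198 and 5.199 FPKM in WT, so every CD36KO library lay above all others.

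Fabp5, which carries fatty acids and retinoic acid to PPARδ, fell by 0.78 in CD36CKO against WT (adjusted p = 0.0161, limma), with 47.3, 36.3 and 38.8 FPKM in CD36CKO and 65.7, 76.8 and 69.1 FPKM in WT. Fabp5 had 40.0, 56.5 and 52.4 FPKM in CD36KO (log2 fold change -0.51 over WT, adjusted p = 0.0606, limma), also below every WT library. Lipe, the hormone-sensitive lipase, fell by 0.85 in CD36KO against WT (0.00736) and by 1.05 against CD36CKO (0.00865), with 5.73, 6.003 and 5.62 FPKM in CD36KO, 12.3, 13.8 and 13.2 FPKM in CD36CKO and 11.3, 13.8 and 9.13 FPKM in WT. Mgll, the monoacylglycerol lipase, rose by 0.51 ± 0.11 in CD36KO (0.0236). Aldh1a2 is also a gene of the epicardium, whose markers summed to 20.4 to 28.5 FPKM in CD36KO, 25.1 to 30.2 FPKM in CD36CKO and 40.0 to 51.7 FPKM in WT. These sums overlapped between the knockouts, and their part in the Aldh1a2 result was not tested. Without both CD36KO 3 and CD36CKO 3, the Lipe difference between the knockouts and the Fabp5 difference of CD36CKO from WT no longer passed the threshold, though they were about as large (Lipe -1.03, adjusted p = 0.0813, and Fabp5 -0.75, adjusted p = 0.0817, limma). The Lipe difference missed the threshold also without CD36KO 3 alone (-1.04, adjusted p = 0.0503, limma), and that of Fabp5 without CD36CKO 2 (-0.70, adjusted p = 0.0742, limma) or WT 2 (-0.72, adjusted p = 0.0503, limma).

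Each of the 29 calls on named genes of these lists was repeated with each library left out in turn, and no sign turned. The 3 that passed every time were Aldh1a2 and Lipe in CD36KO and Rarg in CD36CKO, all against WT. The other 26 were lost at least once, at adjusted p of up to 0.165 (limma), and 14 were lost in 5 or more of the 9 fits. Against WT, these 14 were Gabpa, Gabpb1, Kat2b, Nr0b2, Pnpla2, Rara and Twnk in CD36KO and Gabpa, Ncoa1, Nrf1 and Polg in CD36CKO. Between the knockouts they were Nr0b2, Rarg and Twnk. Gabpb1, Rara and Twnk in CD36KO and Ncoa1 and Polg in CD36CKO, all against WT, were lost in 8 fits. Against WT, Acsl1 in CD36CKO was lost without CD36CKO 2, Cpt1a without CD36CKO 2 or WT 2, and Vegfa without CD36CKO 2 or CD36CKO 3. Ech1 and Acadm in CD36KO were each lost without any 1 of the CD36KO libraries, and Ppp3cb without CD36KO 1 or CD36KO 3. Over the 9 fits the log2 fold change against WT stayed between 0.80 and 1.39 for Ech1, 0.50 and 0.70 for Acadm and 0.46 and 0.53 for Ppp3cb in CD36KO. In CD36CKO it stayed between 0.68 and 1.02 for Acsl1, 0.57 and 0.82 for Cpt1a and 0.79 and 1.27 for Vegfa. Aldh1a2 in CD36KO against CD36CKO was lost without CD36KO 3 or CD36CKO 2, with differences of 0.87 to 1.10.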

How the data were processed

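The authors deposited FPKM values for 56748 genes in 9 libraries, with gene identifiers, positions, strand and lengths, per the file headers. Per the submitters' processing notes, the tools were CASAVA, HISAT, HISAT2 and TopHat2, with no version or role given. Messenger RNA was captured by its poly-A tail for directional libraries, per the labels' protocols. The sources used here do not give the genome build, the annotation, the read counter or the use of strand. The product of FPKM and gene length moved in steps of 1 read (100% of values within 0.05 reads), from which each library's reads were recovered, 14408631 to 20725356 reads per library. FPKM scales with library size, so transcripts that take more of the reads lower all others.

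From these values, log2(FPKM + 1) of the 12206 genes with a mean of at least 1 FPKM was fitted with limma 3.58.1 in R 4.3.3, with 1 mean per genotype, all 9 libraries and a trended empirical Bayes step. Tests were two-sided, with Benjamini-Hochberg adjustment over all tested genes and a threshold of 0.05. Fold changes on this scale understate those of low genes. The fit was tested on simulated data. Intervals and the limit that a count of 0 allows cover counting error or library spread only.

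The 10 genes and the gene lists were chosen with earlier results of these data known. All 10 and Cd36 are named. In each list and comparison up to 3 genes in each direction with the smallest p among those past the threshold are named, or the 1 with the smallest p where none passed. Some genes that this rule selects are counted in their lists but are not reported here. For a gene past the threshold among the 10, the 3 nearest profiles are named. Alternatives covered pseudocount, filter, scaling, recovered reads in limma voom, library weights, the groups in the fit, a replicate block, left-out libraries and, added after seeing the data, the atrial markers as a covariate. The covariate was not applied to the counts and medians of the gene lists.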

Additional observations from a re-analysis of the deposited data

How the results depend on the processing

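Counts are given for CD36KO against WT, CD36CKO against WT and CD36KO against CD36CKO in that order, where the reported fit called 0, 1 and 0 of the 10 genes and 1527, 1547 and 553 of all genes. With a replicate block the counts were 0, 0 and 0 of the 10 and 1004, 963 and 399 of all. Same-numbered libraries showed no clear pairing, though so few libraries cannot exclude one. Their residuals correlated at 0.07, -0.02 and 0.04 between CD36KO and WT, and at 0.07, -0.43 and -0.04 between CD36CKO and WT. Between CD36KO and CD36CKO they correlated at 0.092, 0.0026 and 0.14. Library weights called 5, 3 and 1 of the 10 and 6849, 6124 and 2417 of all, from weights that had not fully converged. Fitting only the groups compared called 1, 0 and 1 of the 10 and 838, 504 and 1364 of all. With no filter on low values these were 0, 0 and 0 of the 10 and 743, 753 and 169 of all, and with a mean of at least 5 FPKM, which drops Esrrg, 0, 0 and 0 of the 10 and 1037, 1000 and 338 of all. Quantile normalization called 0, 0 and 0 of the 10 and 1724, 1613 and 772 of all. With mitochondrial and haemoglobin genes removed 0, 1 and 0 of the 10 and 1028, 2022 and 361 of all passed. Pseudocounts of 0.1 and 5 and limma voom each called 0, 1 and 0 of the 10. Of all genes, a pseudocount of 0.1 called 1504, 1491 and 562, a pseudocount of 5 called 1520, 1511 and 511, and voom 1470, 1885 and 566. Without both CD36KO 3 and CD36CKO 3, which leaves fewer libraries, 0, 0 and 0 of the 10 and 200, 412 and 48 of all passed. With the atrial covariate 0, 0 and 0 of the 10 and 0, 2 and 60 of all passed. Each library left out in turn gave 0 to 1, 0 to 2 and 0 to 1 of the 10 and 405 to 3203, 330 to 3950 and 29 to 1463 of all.

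The Esrrg difference in CD36CKO stayed between 0.23 and 0.68 and passed under 7 of 20 alternatives. Rxrg in CD36KO against WT stayed between 0.36 and 1.53 and passed under 3 of 20. Aldh1a2 in CD36KO passed against WT under 20 of 21, all but the atrial covariate. Against WT, Lipe in CD36KO passed under 19 of 21, Nr0b2 in CD36KO under 10, Kat2b in CD36KO under 8, and Gabpa under 8 in CD36KO and 12 in CD36CKO. Outside the PPAR targets, counts of list genes called ranged from 0 to 14.

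Signs turned in 47 cases, 9 of them isotype shares, and the cause was not tested. None was past the threshold in the reported fit, and 1, Esrra in CD36KO against WT with library weights, passed it after the turn (adjusted p = 0.0232, limma). With each library left out in CD36KO against WT, Ppara ranged from -0.040 to 0.19, Pparg from -0.29 to 0.023, Ppargc1a from -0.077 to 0.17 and Esrra from -0.27 to 0.15, and the medians of the RXR partner receptors and coregulators from -0.0080 to 0.12 and from -0.0038 to 0.19. In CD36CKO against WT, Ppara ranged from -0.027 to 0.22, Ppard from -0.14 to 0.10, Rxrg from -0.052 to 0.54, Ppargc1b from -0.024 to 0.21 and Esrra from -0.12 to 0.30. Ppara ranged from -0.15 to 0.067 between the knockouts. Other settings in CD36KO against WT gave Esrra -0.24 with library weights, -0.36 with the atrial covariate, -0.017 without CD36KO 3 and CD36CKO 3 and -0.0024 with a pseudocount of 5. Ppargc1a was -0.021 with library weights, Rxra -0.064 and Nr2f1 0.18 with the atrial covariate, and at 5 FPKM the same medians were -0.14 and -0.034. In CD36CKO against WT, removal of mitochondrial and haemoglobin genes turned Ppard, Rxra and Rxrb to 0.20, 0.17 and 0.10. Ppard was 0.064 in voom and 0.071 with library weights. Rxrg was -0.052 without CD36KO 3 and CD36CKO 3. Library weights gave Ppargc1b -0.17 and Esrra -0.11, and the atrial covariate -0.025 and -0.095. Between the knockouts the atrial covariate gave Ppara 0.020.

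With each library left out, differences in isotype share ranged as follows, in percentage points and the same order of comparisons. Ppara ranged from 3.18 to 5.70, -3.04 to 1.16 and 2.99 to 7.19, Rxra from 2.92 to 7.58, -1.46 to 1.88 and 2.51 to 7.17, Ppargc1a from 2.50 to 6.09, 1.63 to 6.93 and -2.81 to 2.49, and Esrra from -2.60 to -0.057, -1.95 to 0.59 and -1.22 to 0.10. Depth limits Rxrg most, at 26 to 113 reads per library.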
